A study of Homo sapiens with 2 samples.

Results

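The Notch pathway was followed through 10 genes in U937, an established human myeloid leukemia cell line with monocytic features. The genes were the receptors NOTCH1 and NOTCH2, the endocytic adaptors NUMB and NUMBL, the ubiquitin ligase DTX1, the transcription factor RBPJ with its coactivator MAML1, and the target genes NRARP, HES1 and HES4. They are 10 of 22465 genes measured, taken by name, each from the table rows that carry its symbol alone, and each had 1 such row. One culture had received the empty lentiviral vector and the other the TWIST-1 cDNA. Each was hybridised to 1 Affymetrix Human Transcriptome Array 2.0, so no difference below has a replicate error or a p-value. An effect of TWIST-1 cannot be told apart from a difference between 2 cultures or 2 arrays. The study's general methods sort transduced cells for green fluorescent protein, but its array methods and the labels do not mention sorting. The promoter driving TWIST-1 is named neither by the labels nor by the methods.

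Notch receptors are cut at the cell surface after a ligand on a neighbouring cell binds them. The last cut releases the intracellular domain, which enters the nucleus and joins RBPJ and a Mastermind protein on DNA. Without that domain RBPJ recruits corepressors, so its target genes, such as those of the HES and HEY families, are held down. NUMB binds the receptor domain and promotes its removal, and it is inherited unequally when some progenitor cells divide. In blood, Notch signaling is best known for directing progenitors to the T cell lineage, and both losses and gains of it have been described in leukemia.

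The values are log2 levels after quantile normalization, and each log2 ratio subtracts the vector array from the TWIST-1 array. A difference of 1.2-fold, the size that the methods of the study set as a change, is a log2 ratio of 0.26. The study's results also state a P threshold, which was not applied here, so the counts below rest on size alone and are not the study's. At this size 1 of the 10 genes, NRARP, was higher in TWIST-1-transduced cells, beside 2.71% of all genes, and 1, RBPJ, was lower, beside 2.85% of all genes. The other 8 had log2 ratios from -0.11 to 0.18, which is less than 1.2-fold either way. The median log2 ratio of the 10 was -0.0090, and that of all genes was 0.04. Of them 5 had ratios above 0 and 5 below, while 60.0% of all genes lay above 0. With so few genes, named with earlier results of these arrays known, these shares describe the genes and carry no test.

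Levels on this array do not show by themselves whether a transcript was present. The T cell markers CD3D, CD3E, CD3G, CD2, CD5, LCK and ZAP70 had log2 levels from 2.53 to 5.54 on the vector array and from 2.62 to 5.68 on the TWIST-1 array. The log2 levels of NUMB, NRARP, DTX1 and HES1 on both arrays lay inside these ranges, and those of the other 6 genes above them. Markers of other lineages reached higher levels, up to 7.27 and 7.32 for the B cell marker BLNK and 6.55 and 6.90 for the erythroid marker KLF1. Of the 10 genes only NOTCH2 lay above BLNK on both arrays. The other measured B cell markers reached only 5.90 and 5.85 (CD79A), below NUMBL, RBPJ, NOTCH1, HES4 and MAML1 on both arrays. Of 10 myeloid markers 9 were measured, at 5.09 to 11.6 on the vector array and 5.20 to 11.4 on the TWIST-1 array. Among them LYZ, which encodes lysozyme, was at least 1.2-fold lower (-0.27, but -0.16 once loess-normalized and -0.23 once quantile-normalized again), and 0 were higher. The B cell markers (5 of 6 measured) and the T cell markers (all 7) held none past 1.2-fold. Of 4 erythroid markers measured, KLF1 was higher, at 0.35. The part of these shifts in the results was not tested. TWIST1 itself had a log2 ratio of 0.21, short of 1.2-fold, and where its probes lie relative to the cDNA was not analysed here.

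**Figure D1:**
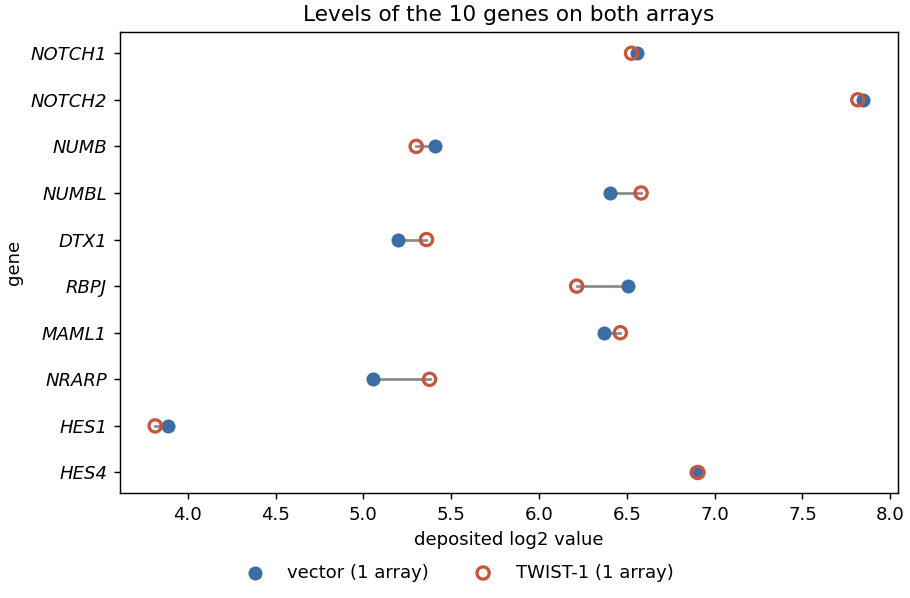
Deposited log2 value (horizontal axis) of each of the 10 genes on the vector array (filled) and the TWIST-1 array (open), 1 array each. RBPJ and NRARP have the widest gaps, in opposite directions, and the symbols of NOTCH1, NOTCH2 and HES4 nearly coincide.

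Both receptors were nearly level between the arrays. NOTCH1, the receptor that T cell leukemias most often activate by mutation, stood at a log2 value of 6.56 with the vector and 6.53 with TWIST-1. Its log2 ratio of -0.03 stayed below 0 under each of the other scalings, where it ran from -0.08 to -0.03. NOTCH2, the receptor that B cell and monocyte subsets depend on in mice, stood at 7.84 and 7.82. Its ratio of -0.03 became 0.0061 after loess normalization and 0.03 after another quantile normalization, so it has no settled direction. Near-identical copies of the first exons of NOTCH2 exist in the human genome and can share its probes. The table row of one of them, NOTCH2NL, stood at 8.61 and 8.55, a ratio of -0.05 that was 0.02 after another quantile normalization.

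Of the 2 NUMB genes, one was lower and the other higher, neither by 1.2-fold. Real-time PCR of NUMB was not analysed here. On the arrays NUMB stood at a log2 value of 5.41 with the vector and 5.30 with TWIST-1. Its log2 ratio of -0.11 is a 1.08-fold lower level. Among 4233 genes whose mean log2 level lay within 0.5 of that of NUMB, 12.9% had a lower ratio. NUMBL, its paralog with the same kind of phosphotyrosine-binding domain, had log2 values of 6.40 and 6.58 and a ratio of 0.18, or 1.13-fold higher. Of 4122 genes of like level, 94.4% had a lower ratio than NUMBL. The opposite signs of NUMB and NUMBL held under all scalings run, with ratios for NUMB from -0.16 to -0.08 and for NUMBL from 0.14 to 0.18. DTX1, a Deltex ubiquitin ligase that binds the receptor domain and is itself a Notch target in lymphocytes, stood at 5.20 and 5.36, a ratio of 0.16, with 85.2% of 4105 genes of like level lower. NUMB has several splice forms that differ in their protein-binding regions, and 1 value per gene does not separate them.

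RBPJ had the lowest ratio of the 10 genes. RBPJ encodes the DNA-binding protein on which signals from all Notch receptors converge. It stood at a log2 value of 6.51 with the vector and 6.21 with TWIST-1, a ratio of -0.29 or 1.23-fold lower. It ranked 426 from the lowest of all genes, and 1.77% of 4305 genes of like level had a lower ratio. Centring on the median gene gave -0.34, loess normalization -0.31 and a further quantile normalization -0.30, all past 1.2-fold. It was short of it, at -0.25, when 16 was added to the linear values, which shrinks ratios of low signals. RBPJ has processed pseudogenes whose transcripts can share its probes, and the array row does not separate them. MAML1, the Mastermind coactivator, was closer to 0, with log2 values of 6.37 and 6.46 and a ratio of 0.09.

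**Figure D2:**
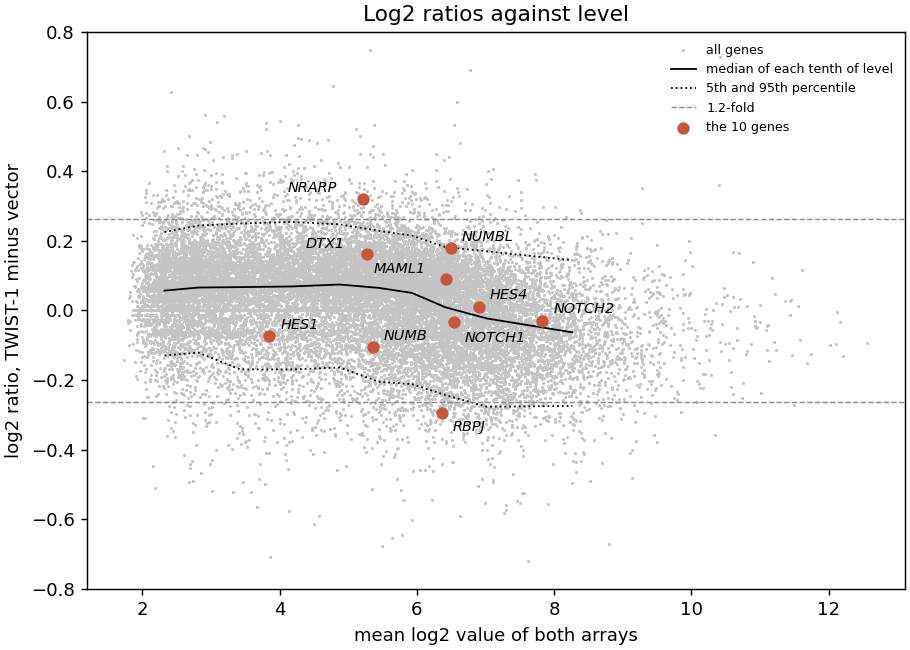
Log2 ratio (vertical axis, TWIST-1 minus vector) against mean log2 value of both arrays for 22465 genes (grey) and the 10 genes (red). Solid and dotted lines join the median and the 5th and 95th percentiles of 10 equal groups by level, dashed lines mark 1.2-fold, and 13 genes lie beyond the vertical axis. NRARP lies above and RBPJ below both kinds of line.

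NRARP and RBPJ lay on opposite sides of the spread of genes of their level. NRARP encodes an ankyrin-repeat protein that is switched on by Notch and binds the Notch and RBPJ complex to limit it. It stood at a log2 value of 5.06 with the vector and 5.38 with TWIST-1, a ratio of 0.32 or 1.25-fold higher. It ranked 269 from the highest of all genes, and 98.9% of 4008 genes of like level had a lower ratio, with a 95th percentile of 0.24. The ratio was 0.28 when centred and 0.27 after another quantile normalization, both past 1.2-fold. After loess normalization it was 0.260, just short of the threshold of 0.263, and with the offset it was 0.22. So both genes sat near the threshold, and as deposited RBPJ, at -0.29, lay nearer to it than NRARP. Of the other scalings, RBPJ fell short only with the offset, and NRARP with the offset and after loess normalization. Neither reached 1.5-fold.

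HES1 and HES4, which encode basic helix-loop-helix repressors and are direct Notch targets in many cells, did not follow NRARP. HES1 had log2 values of 3.89 and 3.81 and a ratio of -0.07, and 13.5% of 2992 genes of like level were lower. Its ratio was -0.14 after loess normalization and below 0 under every scaling run. HES4, a human gene that mice lack, stood at 6.89 and 6.91, a ratio of 0.01 that turned to -0.03 when ratios were centred on the median gene.

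**Figure D3:**
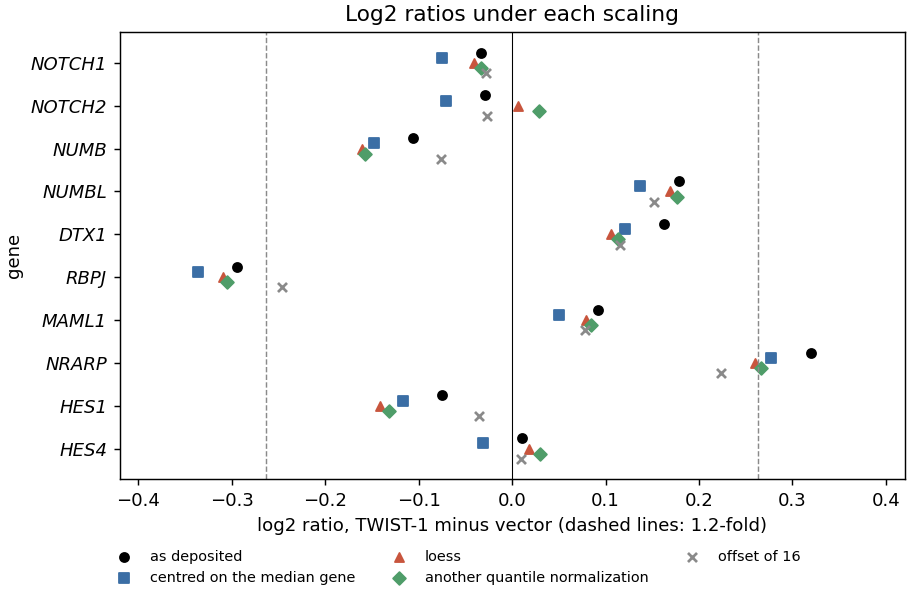
Log2 ratio (horizontal axis, TWIST-1 minus vector) of each gene as deposited and under 4 other scalings, with dashed lines at 1.2-fold. RBPJ stays left of the lower line except with the offset, NRARP crosses the upper line, and NOTCH2 and HES4 change sign.

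The promoters of the target genes and of RBPJ are shown for their matches to a pair of motifs. Each is a 300-base RefSeq window of GRCh38.p14 around an annotated start, written 5' to 3' on the strand of the gene. Capitals mark TGGGAA or its reverse complement TTCCCA, the core of the sequence that RBPJ binds, and CANNTG, the E-box that TWIST-1 and other basic helix-loop-helix proteins bind.
HES1, chr3:194135898-194136197, plus strand: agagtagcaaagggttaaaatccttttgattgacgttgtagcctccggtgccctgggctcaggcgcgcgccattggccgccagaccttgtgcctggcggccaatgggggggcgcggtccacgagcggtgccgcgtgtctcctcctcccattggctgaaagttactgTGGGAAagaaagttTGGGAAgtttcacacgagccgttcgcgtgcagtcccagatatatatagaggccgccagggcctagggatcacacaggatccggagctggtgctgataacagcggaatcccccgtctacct
HES4, chr1:1000048-1000347, minus strand: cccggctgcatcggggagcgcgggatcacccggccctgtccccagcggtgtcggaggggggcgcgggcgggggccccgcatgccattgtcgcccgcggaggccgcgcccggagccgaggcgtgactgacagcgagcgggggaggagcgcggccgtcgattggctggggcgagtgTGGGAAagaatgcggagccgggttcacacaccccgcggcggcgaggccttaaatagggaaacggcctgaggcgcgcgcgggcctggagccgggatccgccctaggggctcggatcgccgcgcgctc
NRARP, chr9:137302222-137302521, minus strand: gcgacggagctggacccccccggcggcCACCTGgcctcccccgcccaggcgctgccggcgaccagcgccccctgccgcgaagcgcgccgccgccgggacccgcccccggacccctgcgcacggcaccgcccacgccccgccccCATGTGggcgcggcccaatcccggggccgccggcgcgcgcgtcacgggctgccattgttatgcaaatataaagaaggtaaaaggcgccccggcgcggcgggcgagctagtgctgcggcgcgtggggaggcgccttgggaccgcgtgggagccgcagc
RBPJ, chr4:26319496-26319795, plus strand: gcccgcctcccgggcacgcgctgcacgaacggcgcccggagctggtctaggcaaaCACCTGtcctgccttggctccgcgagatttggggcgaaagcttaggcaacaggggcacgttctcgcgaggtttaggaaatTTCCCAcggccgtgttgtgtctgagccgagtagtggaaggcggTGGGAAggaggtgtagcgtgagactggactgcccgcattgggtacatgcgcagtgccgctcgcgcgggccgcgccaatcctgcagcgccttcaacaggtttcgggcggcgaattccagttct

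The HES1 window held TGGGAA 84 and 70 bases before the start, both on the plus strand and 14 bases apart, and HES4 held it 76 bases before. NRARP held no TGGGAA in this window but CANNTG 223 and 107 bases before the start. RBPJ had 5 annotated windows, and the one shown was the only RBPJ window with TGGGAA on either strand. It held TTCCCA 115 and TGGGAA 72 bases before the start and CANNTG 195 bases before it. Another RBPJ window held CANNTG 2 times, and the remaining RBPJ windows held neither motif. Of the 10 genes 9 had at least 1 window, 14 in all. TGGGAA, on either strand, was in windows of 3 genes (HES1, HES4 and RBPJ), and CANNTG in windows of 2 (NRARP and RBPJ). Counted by window, each motif was in 3 of the 14. Among all 35116 windows 24.0% held TGGGAA, 3.80% held it more than once and 68.7% held CANNTG. The windows of NUMB, NUMBL, NOTCH1, NOTCH2 and MAML1 held neither. A match is a description of letters and not of a bound site.

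The other genes of the pathway were counted in 9 lists by role, 89 genes in all, of which 81 were measured. The other 8 were not analysed here. Together 1 gene (NRARP) was at least 1.2-fold higher and 5 were lower, beside 2.71% and 2.85% of all genes, and the median log2 ratio was 0.01 beside 0.04 for all genes. Without the 10 genes described above, 71 genes held 0 higher and 4 lower, with a median of 0.02. The counts of single lists below are small and stand beside the same shares of all genes.

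The 5 lower genes were ADAM10, ADAM17, DTX3L, RBPJ and KAT2B. ADAM10 and ADAM17 encode metalloproteases that can cut the receptor at the cell surface and that also shed many cytokines and adhesion molecules. ADAM10 had log2 values of 7.85 and 7.55 and a ratio of -0.31, and ADAM17 had 7.60 and 7.32 and a ratio of -0.29. The pair depended on scaling, since ADAM17 was short of 1.2-fold after loess normalization and with the offset (-0.26 each) and both were after another quantile normalization (-0.25 and -0.23). Of 8 receptor cleavage genes measured these 2 were lower and 0 higher, beside 2.85% and 2.71% of all genes. Of the 8, 7 had ratios below 0, beside 34.8% of all genes, and the median was -0.10. The measured subunits of gamma-secretase, which makes the final cut, lay closer to 0, from -0.13 for PSENEN to -0.0083 for PSEN2. Among genes of like level, from 26.8% (APH1B) to 45.4% (NCSTN) had a lower ratio than these subunits. FURIN, which cuts the receptor during its maturation, was the highest of the list at 0.08. ADAM10 and ADAM17 were among the 2247 brightest of all genes, which had a median ratio of -0.06.

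Among RBPJ and its coactivators, 8 of 9 measured, RBPJ and KAT2B were lower and none was higher, with a median of -0.01. KAT2B, the acetyltransferase PCAF, had log2 values of 6.35 and 6.06 and a ratio of -0.29, and its paralog KAT2A had 7.28 on both arrays. KAT2B remained past 1.2-fold when centred (-0.33), after loess normalization (-0.31) and after another quantile normalization (-0.30), and was short of it with the offset (-0.24). CREBBP, another acetyltransferase of the complex, had a ratio of -0.03 (above 0 after loess and another quantile normalization), and the highest of the list was MAML1. None of 14 RBPJ corepressors measured was past 1.2-fold, and their median was 0.0045. The lowest was KDM5A, a histone H3 lysine demethylase, at -0.22, followed by SPEN, the large scaffold that RBPJ recruits for repression, at -0.20. The highest was RITA1, which exports RBPJ from the nucleus, at 0.18.

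Of 21 genes of endocytosis and ubiquitination, all measured, DTX3L was lower and none was higher, with a median of 0. DTX3L, a Deltex-like ligase that works with PARP9, had log2 values of 6.99 and 6.70 and a ratio of -0.29, and stayed past 1.2-fold when centred (-0.34), after loess (-0.29) and after a further quantile normalization (-0.27), but not with the offset (-0.26). The other Deltex genes ran the other way, with ratios of 0.16 for DTX1, 0.12 for DTX2, 0.14 for DTX3 and 0.03 for DTX4, none past 1.2-fold. The ratio of DTX4 was below 0 in each of those 3 versions. Genes of like level had median ratios of 0.07 for DTX1, DTX3 and DTX4, 0.02 for DTX2 and -0.01 for DTX3L. Ratios above 0 were therefore usual at the levels of DTX1, DTX2, DTX3 and DTX4. From 36.1% (DTX4) to 85.2% (DTX1) of genes of like level had a lower ratio than these 4. ITCH, a ligase of the NEDD4 family, had a ratio of -0.23 and passed 1.2-fold only when ratios were centred (-0.27). The highest of this list was NUMBL.

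Ligands, receptors and their glycosyltransferases held no gene past 1.2-fold. The 5 ligand genes had a median of 0.07 and ran from -0.05 for DLL1 to 0.15 for DLL4. The 4 receptors had a median of 0.02, with NOTCH3 highest at 0.12 and NOTCH1 lowest. Of 4 glycosylation genes measured, RFNG, which encodes a Fringe enzyme, was highest at 0.10 and EOGT lowest at -0.25. EOGT, which adds a single sugar to receptor repeats, passed 1.2-fold only when ratios were centred (-0.29).

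**Figure D4:**
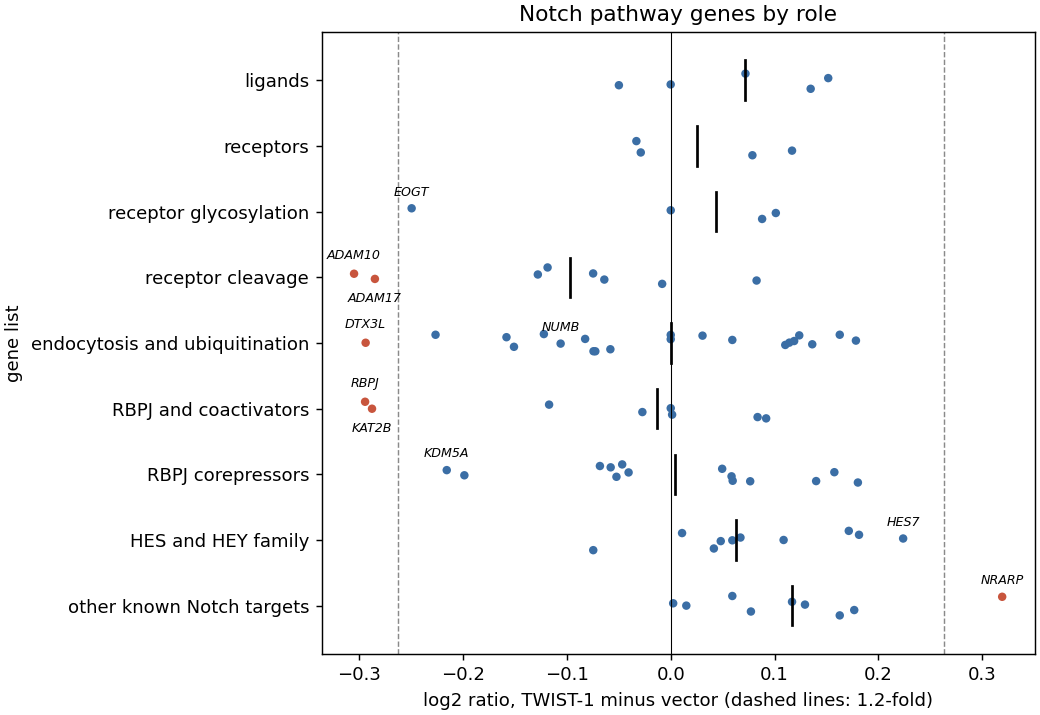
Log2 ratio (horizontal axis, TWIST-1 minus vector) of the measured genes of 9 lists by role, where a gene of 2 lists appears in both. Points are genes (red past 1.2-fold, which the dashed lines mark, with small vertical jitter), black bars are list medians, and the red points are ADAM10, ADAM17, DTX3L, RBPJ, KAT2B and NRARP.

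Among target genes, ratios above 0 were mostly small and depended on scaling. In the HES and HEY family 9 of 10 genes had deposited ratios above 0, beside 60.0% of all genes, but none was past 1.2-fold and the median was 0.06. Ratios depended on level, and the median ratio of genes of like level ran from -0.02 for HES6 to 0.07 for HEY2. Among genes of like level, from 13.5% (HES1) to 96.0% (HES7) had a lower ratio than the family member. When centred and after loess normalization 7 of the 10 lay above 0, with medians of 0.02 and 0.03. Of all 22465 genes, 11232 lay above 0 when centred and 11665 after loess normalization. After another quantile normalization 9 lay above 0, as deposited, with a median of 0.04, beside 12274 of all genes above 0. HES7, a repressor of the segmentation clock, was highest with log2 values of 5.86 and 6.09 and a ratio of 0.22, and HES1 was lowest. In the list of other known targets, all 9 genes measured had deposited ratios above 0. When centred 7 lay above 0, and 8 after loess and after another quantile normalization, beside the same counts of all genes as above. NRARP alone was past 1.2-fold and the median was 0.12, or 0.08 after loess normalization. PTCRA, which encodes the pre-T cell receptor alpha chain, had a ratio of 0.18 and IGF1R, the insulin-like growth factor receptor, 0.13. MYC, a target of Notch in T cell leukemia, was lowest with log2 values of 8.68 on both arrays and a ratio of 0.0024, which was -0.04 when centred.

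Scaling shifted the background against which these counts are read. With ratios centred on the median gene, 1 of the 10 genes (NRARP) was higher, beside 1.46% of all genes, and 1 (RBPJ) was lower, beside 4.83%. After loess normalization 0 were higher, beside 1.47%, and 1 was lower, beside 3.65%. After another quantile normalization 1 was higher, beside 1.66%, and 1 was lower, beside 3.25%.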

How the data were processed

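Each condition, empty vector and TWIST-1, was represented by 1 Affymetrix HTA 2.0 array of U937 RNA. The authors deposited log2 values, quantile normalized per their methods, and Affymetrix Expression Console appears in the submitters' processing notes. For probe summarisation and background correction the method was not given in the sources used. Of 70523 rows, 23781 carried 1 gene symbol and were used. Symbols were updated through RefSeq gene identifiers (GRCh38.p14) for 21497 rows. The row with the highest mean stood for a gene, which gave 22465 genes.

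No test was possible, so genes are described by both values, their log2 ratio and its rank, and counted at 1.2-fold. Ratios were also set beside those of genes within 0.5 log2 units of mean level. Named are the 10 genes, TWIST1, each list's genes past 1.2-fold and its highest and lowest gene, and the 3 genes nearest to NUMB and to RBPJ over both values. Other names, such as further list members, NOTCH2NL and RBPJL, were chosen after their values were seen. The genes and lists were chosen with earlier results of these data known. Alternatives were centring, loess (span 0.7, 3 iterations), another quantile normalization, an offset of 16, dim genes left out, the mean of a gene's rows and a 1.5-fold threshold. Promoter windows ran from 250 bases before to 50 after each RefSeq start. The steps were tested on simulated data. R 4.3.3, limma 3.58.1, Python 3.11.15 and pandas 2.3.3 were used. The number of arrays limits the precision.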

Additional observations from a re-analysis of the deposited data

How the results depend on the processing

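Of 59 values of the 10 genes' log2 ratios under other settings, 58 lay within 0.07 of the deposited ratio (the SD of ratios between rows of the same gene, over the 479 genes with several rows) and neither ratio past 1.2-fold changed sign, while NOTCH2 and HES4, near 0, did. The exception was NRARP with an offset of 16 (0.22). Centring moves every ratio by the same 0.04, and leaving out dim genes or taking the mean of rows keeps these ratios as deposited. Values from these settings could not lie further than 0.07 away, so their part of the count says nothing about how stable the ratios are. The number of the 10 genes higher went from 1 to 0 after loess normalization, with the offset and at 1.5-fold, and the number lower from 1 to 0 with the offset and at 1.5-fold. Over all pathway lists, the number higher was 0 after loess normalization, with the offset and at 1.5-fold. The number lower, 5 as deposited, was 3 after another quantile normalization, 1 with the offset (ADAM10) and 0 at 1.5-fold. The offset shrinks ratios and the 1.5-fold threshold is stricter by construction, and the cause was not tested for the other scalings. Of 126 list counts under other settings, 13 differed from the deposited count by more than 1.5 times. Most of the list counts were 0 as deposited and stayed 0, and a count of 0 cannot rise at 1.5-fold. So this share does not show how stable the other counts are. The receptor cleavage genes lower, 2 as deposited, were 1 after loess normalization and with the offset, and 0 after another quantile normalization. The RBPJ and coactivator genes lower, 2 as deposited, were 0 with the offset and at 1.5-fold. HES1 lay below the median level and has no value where dim genes were left out. Leaving out a replicate was not possible with 1 array per condition. No paired analysis was possible because each group holds 1 array, so the groups share fewer than 2 replicate numbers. Each of the 10 genes had 1 row, so the mean of rows gave the same ratios.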

Other observations

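RBPJL, the paralog of RBPJ known from pancreatic acinar cells, stood at log2 values of 5.07 with the vector and 5.18 with TWIST-1. Its log2 ratio of 0.11 was opposite in sign to that of RBPJ and short of 1.2-fold. The 3876 genes of like level had a median ratio of 0.07, and 66.9% of them had a lower ratio. So its sign was that of most genes at its level.

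By Euclidean distance over both log2 values, the genes nearest to NUMB were NUDCD2 (5.40 and 5.30), CSPP1 (5.40 and 5.28) and ZCCHC2 (5.40 and 5.28). The genes nearest to RBPJ were CCDC117 (6.51 and 6.21), MON2 (6.52 and 6.22) and KDM3A (6.51 and 6.23). With only 2 values per gene this likeness is loose, since 176 genes lay within a distance of 0.1 of NUMB and 63 within that of RBPJ.

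Of all genes, 1177 (5.24%) had exactly the same deposited value on both arrays, among them POGLUT1, MAML2, AP2A1 and AP2A2 of the pathway lists. This share was 10.6% among the 2247 genes with the lowest level.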
